A study of Rattus norvegicus with 12 samples.

Results

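Genes of the cilium were followed through 4 groups of cultured rat neural stem cells (NSCs). They were chosen by the gene symbol that the array's annotation gives a probe set: Foxj1, Ak7 and the families Dnah, Dnai, Dnali, Dynlrb, Tekt, Rsph and Cfap, called motile here, and the families Ift and Bbs, called transport here. The rule found 65 genes, 41 motile and 24 transport, on 80 of the array's 31042 probe sets, among 14217 genes with a symbol of their own. The rule reads symbols and no measured values, but it was set with earlier results of these data known.

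The cells came from the spinal cord or the brain of Sprague Dawley rats at postnatal day 3 to 5, without any genotype, transgene or drug named in the labels. The 4 groups were differentiated spinal cord cultures, proliferative spinal cord cultures, differentiated brain cultures and proliferative brain cultures, with 3 Affymetrix Rat230_2 arrays each. The sources used here do not give the method or length of differentiation, nor whether a group's 3 arrays represent different cultures. The p-values therefore cover array-to-array spread only, and that spread could be technical. Among stem cell markers, the transcription factor Sox2 averaged 11.63, 12.81, 13.24 and 12.62 log2 units in the 4 groups in the order above. Hes5, a Notch target of NSCs, lay at background level in every group except differentiated brain cultures. The summed linear signal of 6 stem cell markers was 16200 to 16660 in differentiated and 22540 to 23220 in proliferative spinal cord cultures. In brain the sum was 35790 to 42030 in differentiated and 28500 to 34400 in proliferative cultures. It was thus higher in the proliferative state in spinal cord and in the differentiated state in brain.

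Cilia are thin projections built on a core of microtubules, the axoneme. Primary cilia do not beat and serve as signalling antennae, among them for hedgehog ligands, while motile cilia carry dynein arms, radial spokes and tektin filaments and, on ependymal cells, move cerebrospinal fluid. Intraflagellar transport (IFT) trains and the BBSome carry cargo in both kinds. The transcription factor Foxj1 switches on the genes that are needed for motility.

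Values are log2 signals, so 1 unit is a doubling. A probe set was called dim in a group when all 3 of its arrays lay under those arrays' own 40th percentiles, which ranged from 5.91 to 6.41. Dim values have no reliable order: folds against a dim group are given as "at least", measured from the mean of those percentiles, and none is given between dim groups. Changes come from limma, a linear model fitted to all probe sets, with p-values adjusted by the Benjamini-Hochberg method over the 20834 probe sets that reached the 40th percentile on 3 or more arrays, and a threshold of 0.05. For a gene with several probe sets, the brightest one stood for the gene. These are bulk cultures, so fewer cells of a type and less RNA per cell cannot be told apart.

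Motile genes were more often above this floor in differentiated brain cultures than elsewhere, and transport genes were above it in every group. Of the 41 motile genes, 19 were above the floor in differentiated and 17 in proliferative spinal cord cultures, against 30 in differentiated and 21 in proliferative brain cultures. Array by array, the differentiated spinal cord cultures had 17, 18 and 18 motile genes above the 40th percentile and the proliferative ones 15, 16 and 15. The differentiated brain arrays had 27, 27 and 26, and the proliferative brain arrays 19, 16 and 20. The differentiated brain arrays therefore did not overlap with any other group. Over all 14217 genes the share above the floor was 76.7% in both spinal cord groups, 75.0% in differentiated and 75.5% in proliferative brain cultures.

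**Figure D1:**
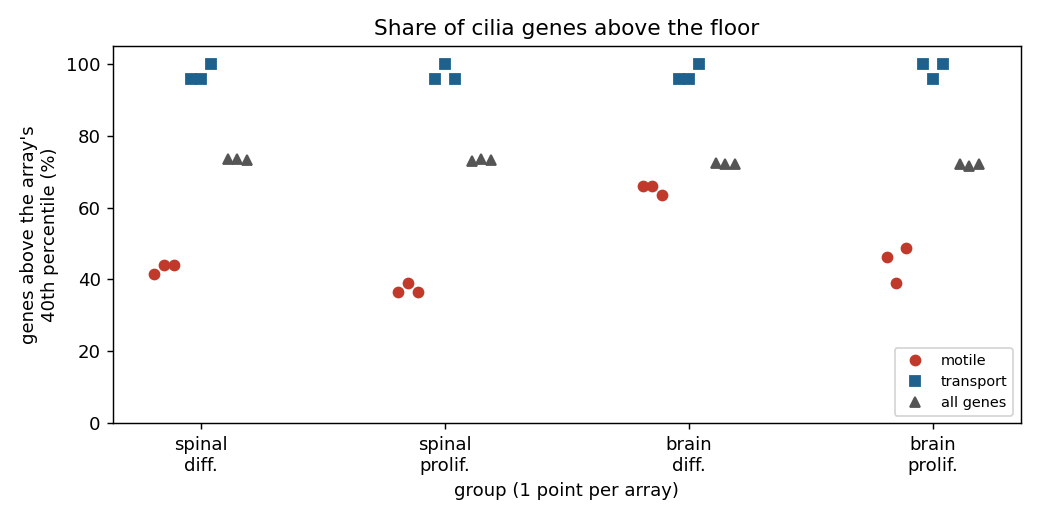
Share of genes above the array's own 40th percentile (y axis, in percent), with 1 point per array for the motile genes, the transport genes and all genes in each group (x axis). Motile genes reach 63.4 to 65.9% in differentiated brain cultures, with the other 9 arrays at 36.6 to 48.8%, while transport genes stay at 95.8 to 100% throughout.

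All 24 transport genes passed the filter, and 26 of the 41 motile genes did. The 15 that did not were Cfap90, Cfap100, Cfap161, Cfap276, Cfap299, Dnah2, Dnah7, Dnah17, Rsph3, Rsph6a, Rsph10b, Tekt3, Tekt4, Tekt5 and Tekt5l1, and they are described by level only. Of these, 11 were dim in all 4 groups, and Cfap161, Cfap90, Rsph10b and Tekt4 rose above the floor on 1 array each, always one from differentiated brain cultures. Ak7, Dnah1 and Dnai1 passed the filter through the differentiated brain arrays alone, so a difference from the other groups was built into their passing. Cfap77, Cfap126 and Rsph1 would also have missed it without the differentiated brain arrays, and Tekt2 without the differentiated spinal cord arrays. For that reason each count over motile genes below is also given for the 15 that were dim in no group.

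**Figure D2:**
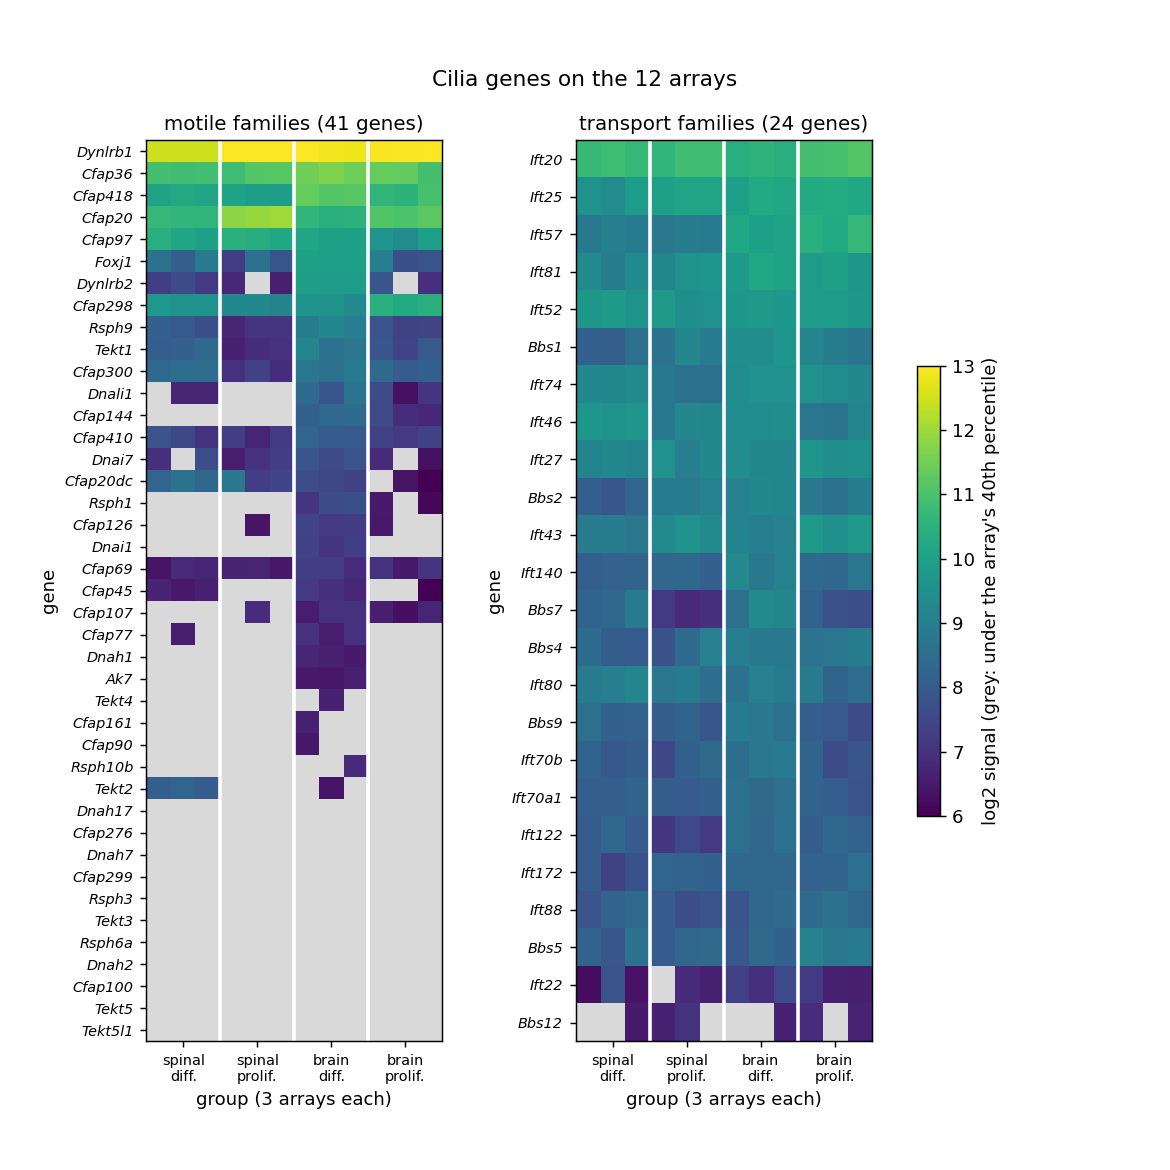
Log2 signal (colour) of the 41 motile genes (left) and the 24 transport genes (right) on the 12 arrays, with a row for each gene and white lines between groups; grey marks values under the array's 40th percentile. Rows run from the highest to the lowest mean in differentiated brain cultures, and grey fills 11 motile rows completely and no transport row.

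Foxj1, the master factor of motile cilia, was highest in differentiated brain cultures. It read 8.65, 8.13 and 8.88 on differentiated spinal cord arrays, against 7.26, 8.60 and 7.88 on proliferative ones. In brain it read 10.00, 9.96 and 10.00 on differentiated arrays, against 8.98, 7.71 and 7.81 on proliferative ones. The brain states did not overlap, while those of spinal cord did. The brain difference was 3.53-fold (log2 change 1.82, SE 0.35, limma adjusted p = 0.000723). In spinal cord the log2 change of 0.64 did not pass (limma adjusted p = 0.165), though it did without proliferative spinal cord array 2 (adjusted p = 0.0375).

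Dynlrb2 and Dynlrb1 encode light chains of the roadblock class, which belong to dynein motors, and they behaved differently. Dynlrb2 read 7.30, 7.62 and 7.18 on differentiated spinal cord arrays, against 6.79, 6.07 and 6.60 on proliferative ones. On differentiated brain arrays it read 9.92, 9.87 and 9.86, against 7.86, 6.21 and 6.98 on proliferative ones. All 3 differentiated brain arrays stood above every other array, the nearest of which read 7.86. The rise in brain was 7.29-fold (log2 change 2.87, SE 0.33, limma adjusted p = 9.76e-06). The 1.84-fold rise in spinal cord was close to the threshold (limma adjusted p = 0.0453) and was lost when any array other than proliferative brain arrays 1 and 2 and proliferative spinal cord array 1 was left out (adjusted p = 0.0518 to 0.157), without the filter (0.0619) and without the mean-variance trend (0.0703). Dynlrb1 was the brightest motile gene, with group means of 12.49 and 13.12 in differentiated and proliferative spinal cord cultures and 12.92 and 12.98 in differentiated and proliferative brain cultures. It fell 1.56-fold in spinal cord (limma adjusted p = 1.81e-05), and its log2 change of -0.06 in brain did not pass.

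Among the axonemal dynein genes, Dnali1 was clearly above the floor in differentiated brain cultures, and Dnai1 and Dnah1 were dim or close to it. Dnai1, an intermediate chain of the outer dynein arm, read 2.84, 3.31 and 5.01 on differentiated spinal cord arrays, against 5.07, 3.84 and 5.04 on proliferative ones, all dim. It read 7.38, 7.09 and 7.26 on differentiated brain arrays, against 5.25, 4.47 and 4.80 on proliferative ones. It was thus dim everywhere except in differentiated brain cultures, where it was at least 2.20-fold higher than in proliferative ones. Dnai1 passed the filter through those arrays alone, so no test is drawn from it. Dnali1, a light chain of the inner dynein arm, read 6.03, 6.75 and 6.75 on differentiated spinal cord arrays, against 6.36, 6.25 and 6.23 on proliferative ones. It read 8.45, 7.89 and 8.72 on differentiated brain arrays, against 7.60, 6.30 and 7.09 on proliferative ones. Only the brain states were apart, by 2.56-fold (limma adjusted p = 0.0041); the other Dnali1 probe set was dim in all groups. Dnah1, an inner arm heavy chain, read 5.53, 5.53 and 2.68 on differentiated spinal cord arrays, against 5.67, 1.38 and 3.87 on proliferative ones. It read 6.75, 6.65 and 6.51 on differentiated brain arrays, against 4.45, 4.88 and 5.62 on proliferative ones. The order of the brain arrays was complete, but the change did not pass (limma adjusted p = 0.196).

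Radial spoke heads, which link the central pair of microtubules to the outer ones, were represented by Rsph9 and Rsph1 among the tested genes. Rsph9 read 8.15, 7.97 and 7.70 on differentiated spinal cord arrays, against 6.75, 7.07 and 7.04 on proliferative ones. It read 8.93, 9.23 and 8.99 on differentiated brain arrays, against 7.82, 7.38 and 7.45 on proliferative ones. The states did not overlap in either tissue, and Rsph9 rose 2.83-fold in brain (limma adjusted p = 1.78e-05) and 1.98-fold in spinal cord (limma adjusted p = 0.000711). Rsph1 read 5.46, 4.92 and 5.02 on differentiated spinal cord arrays, against 5.44, 5.23 and 2.61 on proliferative ones, all dim. It read 7.06, 7.59 and 7.71 on differentiated brain arrays, against 6.50, 5.61 and 6.16 on proliferative ones. The brain states did not overlap, but the log2 change of 1.36 did not pass (limma adjusted p = 0.0869).

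Tektins are filament proteins that line the inside of axonemal microtubules. Tekt1 read 8.09, 8.15 and 8.40 on differentiated spinal cord arrays, against 6.64, 6.92 and 7.00 on proliferative ones. It read 9.18, 8.56 and 8.77 on differentiated brain arrays, against 7.85, 7.41 and 7.95 on proliferative ones. Its rise was 2.56-fold in spinal cord (limma adjusted p = 0.000129) and 2.15-fold in brain (limma adjusted p = 0.000558). Tekt2 was higher in spinal cord instead. It read 8.10, 8.28 and 8.04 on differentiated spinal cord arrays, against dim values of 4.44, 3.21 and 2.75 on proliferative ones. On differentiated brain arrays it read 6.06, 6.40 and 5.92, with 1 array above its percentile, against dim values of 3.83, 4.55 and 3.80 on proliferative ones. Differentiated spinal cord cultures were the only ones with Tekt2 clearly above the floor, at least 3.44-fold above proliferative ones. Its passing of the filter rested on these arrays, so no test is drawn from this difference. The brain difference passed (limma adjusted p = 0.0033), with a bound of only 1.01-fold.

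Among the cilia and flagella associated proteins, Cfap144, a protein of the microtubule lumen, was a gene of the brain cultures. It read 5.05, 6.20 and 5.49 on differentiated spinal cord arrays, against 5.66, 4.57 and 5.75 on proliferative ones, all dim. It read 8.16, 8.38 and 8.45 on differentiated brain arrays, against 7.60, 6.93 and 6.78 on proliferative ones. It rose 2.35-fold in brain (limma adjusted p = 0.0155), a call lost without differentiated brain array 3 or proliferative brain array 2 or 3 (adjusted p = 0.0501 to 0.0564). Its other probe set did not pass in brain (limma adjusted p = 0.0828) and rose in spinal cord (limma adjusted p = 0.0044), so the pair did not give the same calls. Cfap20dc, named for a Cfap20 domain, was brighter in spinal cord instead. It read 8.30, 8.61 and 8.35 on differentiated spinal cord arrays, against 8.77, 7.29 and 7.46 on proliferative ones. It read 7.67, 7.50 and 7.38 on differentiated brain arrays, against 5.95, 6.36 and 6.01 on proliferative ones. It rose 2.66-fold in brain (limma adjusted p = 0.0021), and the log2 change of 0.58 in spinal cord did not pass, except without proliferative spinal cord array 1 (adjusted p = 0.0015).

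Cfap126, Cfap77 and Ak7 lay close to the floor. Cfap126, which helps to place basal bodies, read 5.67, 5.94 and 5.74 on differentiated spinal cord arrays, against 1.06, 6.36 and 4.43 on proliferative ones. It read 7.44, 7.18 and 7.21 on differentiated brain arrays, against 6.47, 5.80 and 5.69 on proliferative ones. Neither change passed (limma adjusted p = 0.272 in brain and 0.132 in spinal cord), though the brain arrays did not overlap. Cfap77, a protein of the microtubule lumen, read 6.07, 6.57 and 6.17 on differentiated spinal cord arrays, against dim values of 6.06, 2.68 and 3.35 on proliferative ones. It read 7.01, 6.52 and 6.99 on differentiated brain arrays, against dim values of 5.76, 5.42 and 5.15 on proliferative ones. Its change passed in spinal cord (limma adjusted p = 0.0168; 0.0582 to 0.0689 without differentiated array 2, proliferative array 2 or proliferative array 3) and not in brain (limma adjusted p = 0.106). The differentiated spinal cord mean did not exceed the floor of the proliferative arrays, so no fold is given. Ak7, an adenylate kinase of motile cilia, read 1.93, 5.26 and 4.36 on differentiated spinal cord arrays, against 3.44, 5.71 and 4.88 on proliferative ones. It read 6.48, 6.44 and 6.62 on differentiated brain arrays, against 5.94, 5.75 and 5.29 on proliferative ones. Ak7 was above the floor in differentiated brain cultures alone and did not pass for either differentiation contrast.

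**Figure D3:**
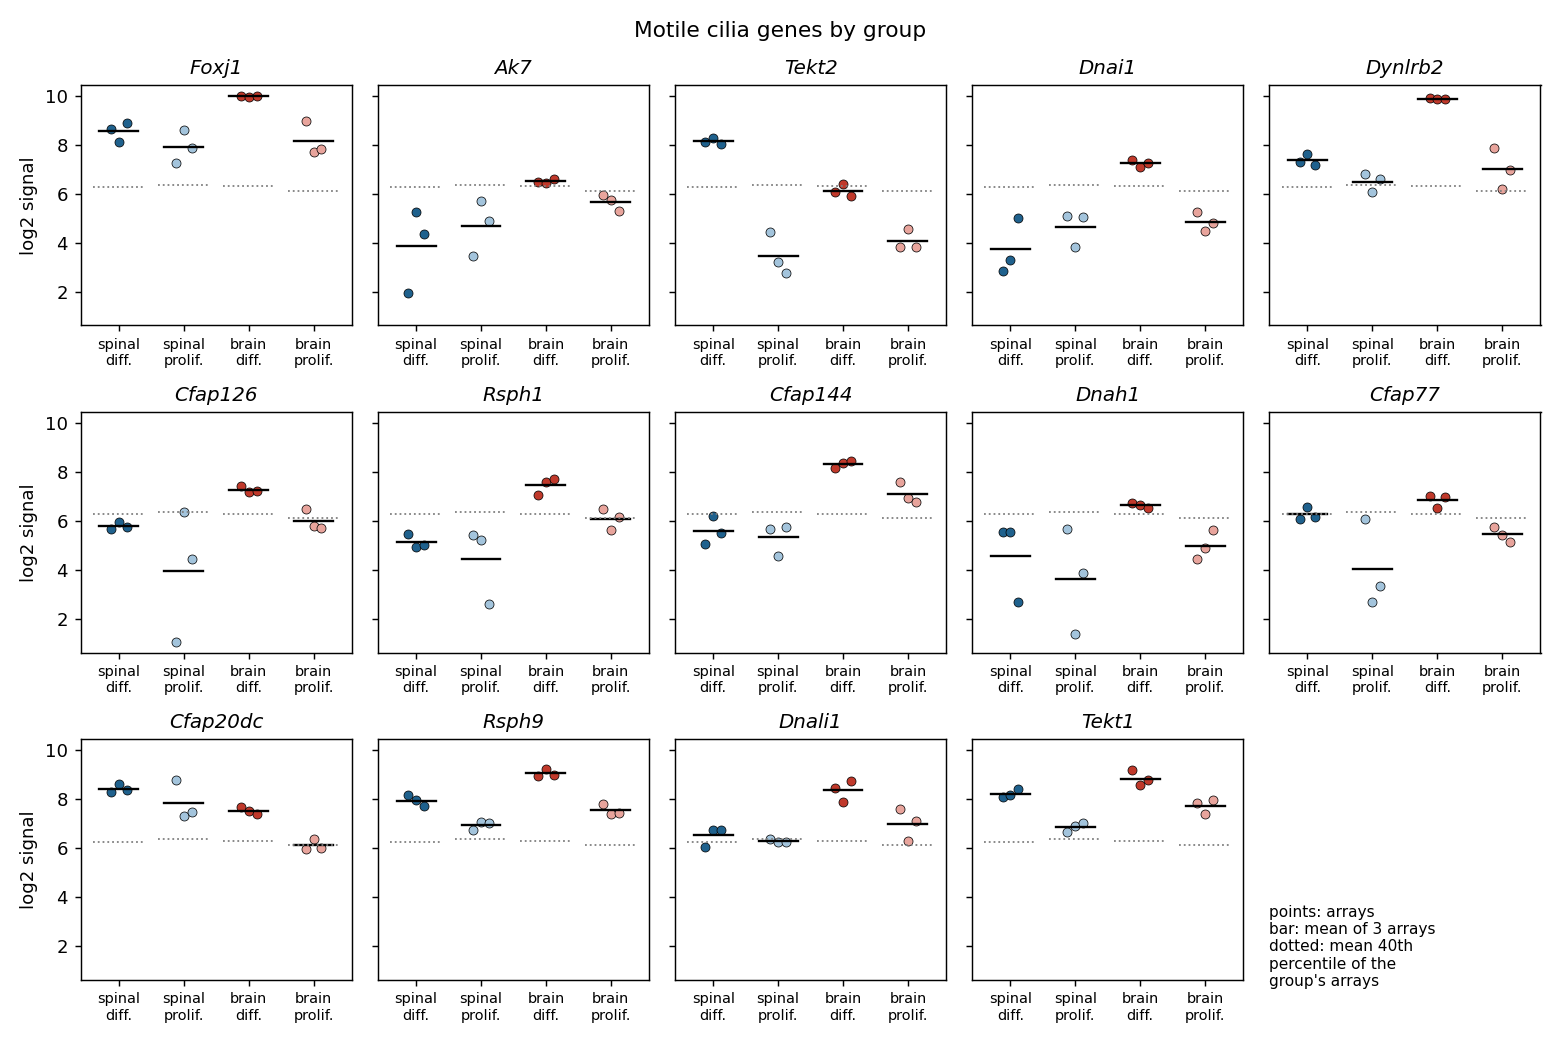
Log2 signal (y axis) of Foxj1, Ak7 and the 12 other tested motile genes with the widest gap between group means, in the 4 groups (x axis); points are arrays, bars are means of 3 arrays and dotted lines are the mean 40th percentile of a group's arrays. The bars of Foxj1, Dynlrb2, Dnai1 and Dnali1 stand highest in differentiated brain cultures, and those of Tekt2 and Cfap20dc in differentiated spinal cord cultures, though the highest Cfap20dc point is a proliferative spinal cord array.

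Promoters are shown for the member genes that held the paired motif described below, and for Tekt2, which was added. The motif chose the former, not their expression. RFX factors, which act beside Foxj1 at cilia genes, bind a short core, and GTTGCC was searched on both strands of the 300 bases from 250 before to 50 after the start, in RefSeq's rat assembly GRCr8. The paired form searched was GTTNCC and its reverse complement with 0 to 3 bases between them, so cores and pairs can overlap, and the forkhead word was GTAAACA on both strands. The table held promoters of 54 of the 65 genes, and Foxj1, Rsph1, Dynlrb1, Cfap107, Cfap410, Cfap418, Tekt5, Ift25, Ift57, Ift74 and Ift80 had no entry. Cfap144 was high in brain, Cfap20dc in spinal cord, Cfap298 moved in opposite directions in the tissues, and Tekt2 rose most in spinal cord. Capitals mark cores and pairs, whichever strand holds them.
Cfap144: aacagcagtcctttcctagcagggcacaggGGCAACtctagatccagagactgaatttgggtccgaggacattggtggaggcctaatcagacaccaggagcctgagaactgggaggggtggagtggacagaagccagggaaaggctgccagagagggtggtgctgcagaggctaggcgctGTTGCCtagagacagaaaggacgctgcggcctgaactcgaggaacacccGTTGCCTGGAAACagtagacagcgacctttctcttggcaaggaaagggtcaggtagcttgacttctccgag
Cfap20dc: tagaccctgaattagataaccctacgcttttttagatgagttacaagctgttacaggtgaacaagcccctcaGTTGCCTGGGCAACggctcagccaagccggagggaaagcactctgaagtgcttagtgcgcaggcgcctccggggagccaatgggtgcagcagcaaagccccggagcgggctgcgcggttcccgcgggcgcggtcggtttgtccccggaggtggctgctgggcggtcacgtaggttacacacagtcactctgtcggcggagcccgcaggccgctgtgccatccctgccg
Cfap298: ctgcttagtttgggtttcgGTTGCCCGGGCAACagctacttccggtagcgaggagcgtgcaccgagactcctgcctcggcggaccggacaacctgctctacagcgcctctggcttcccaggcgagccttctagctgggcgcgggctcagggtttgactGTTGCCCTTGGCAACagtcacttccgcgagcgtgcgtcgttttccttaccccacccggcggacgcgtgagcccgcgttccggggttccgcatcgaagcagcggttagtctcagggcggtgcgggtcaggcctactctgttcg
Tekt2: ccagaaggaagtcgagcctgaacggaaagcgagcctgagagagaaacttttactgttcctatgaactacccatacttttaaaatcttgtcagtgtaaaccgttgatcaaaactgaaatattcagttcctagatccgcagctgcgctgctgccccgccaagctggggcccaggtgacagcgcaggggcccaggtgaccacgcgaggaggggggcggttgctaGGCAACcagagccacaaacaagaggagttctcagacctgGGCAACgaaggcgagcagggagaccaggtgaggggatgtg
Cfap144 lies at chr10:44019232-44019531 (minus strand), Cfap20dc at chr15:18661312-18661611 (plus strand), Cfap298 at chr11:43677333-43677632 (minus strand) and Tekt2 at chr5:143907675-143907974 (minus strand). Counted from the start, whose first transcribed base is 0, the pair began at base -21 in Cfap144, at -178 in Cfap20dc and at -231 and -92 in Cfap298. Tekt2 had cores at -29 and 10 and no pair.

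A GTTGCC core stood in 11 of 34 motile promoters (32.4%) and 7 of 20 transport promoters (35%), against 12.3% of the 11647 other promoters of genes on the array and 12.2% of all 27457. The pair stood in 3 motile promoters (8.82%), those of Cfap144, Cfap20dc and Cfap298, and in 0 transport promoters, against 0.738% of the others on the array and 0.841% of all. The forkhead word stood in 3 motile promoters (8.82%), those of Cfap20, Dnali1 and Tekt3, and in 0 transport promoters, against 2.45% of the others on the array and 3.76% of all. These are matches of letters in a window and were not tested against expression. Genes holding the pair included Cfap298, which fell in differentiated brain cultures, and Cfap144, which rose there.

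In brain, 14 of the 26 tested motile genes rose in differentiated cultures and 2 fell, where 23.7% of all tested probe sets rose and 23.1% fell. The median log2 change of the 26 was 1.26, or 0.76 with dim groups set at the floor, against 0.00 over all tested probe sets. The 14 include Dnai1, which passed the filter through the differentiated brain arrays alone. Among the 15 motile genes dim in no group, 9 rose and 2 fell, with a median of 0.55. Beside those already given, Dnai7, whose family holds dynein intermediate chains, rose 2.70-fold (limma adjusted p = 0.0262), and Cfap45, a protein of the microtubule lumen, rose 2.44-fold (limma adjusted p = 0.0034). Cfap410, a basal body protein, rose 1.73-fold, Cfap300, a dynein arm assembly protein, 1.46-fold, and Cfap418, a protein known from photoreceptor disease, 1.44-fold. The genes that fell were Cfap20, a protein of the axoneme's inner junction, at 1.52-fold lower (limma adjusted p = 0.000124), and Cfap298, which takes part in dynein arm assembly, at 1.84-fold lower (limma adjusted p = 1.88e-05). Cfap107, Cfap36, Cfap69 and Cfap97 had log2 changes of 0.28 to 0.38 and did not pass.

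Some of these brain calls rested on single arrays. Dnai7 was lost without differentiated brain array 1 or 3 or proliferative brain array 2 or 3 (adjusted p = 0.0545 to 0.0991) and after quantile normalization (adjusted p = 0.0583), and Cfap300 without differentiated brain array 3 or proliferative brain array 2 (adjusted p = 0.0576 to 0.0679). Cfap300 and Cfap418 also missed the threshold once arrays were centred on their medians (adjusted p = 0.0698 and 0.0515). In turn, Rsph1 passed without proliferative spinal cord array 3 (adjusted p = 0.0067), and Cfap126, Cfap77, Cfap36 and Cfap97 without proliferative spinal cord array 1 (adjusted p = 0.0109 to 0.0247). Rsph1, Cfap126 and Cfap77 reached the filter only with the differentiated brain arrays, where they were high, so no test is drawn from their gains. Cfap36 also passed without proliferative brain array 1 or 2, and Cfap97 without proliferative brain array 3 or differentiated spinal cord array 1 or 3 (adjusted p up to 0.0488).

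In brain 8 of 24 transport genes rose and 4 fell, where 23.7% and 23.1% of all tested probe sets did, with a median log2 change of 0.12 against 0.00 over all. The widest group range of a transport gene was 2.06 log2 units with a median of 0.76, against 4.67 and 2.02 for the tested motile genes (3.40 and 1.32 with dim groups at the floor). Bbs7, a subunit of the BBSome coat, read 8.59, 9.33 and 9.23 on differentiated brain arrays, against 8.22, 7.75 and 7.69 on proliferative ones. It rose 2.24-fold there (limma adjusted p = 0.0011), although its other probe set did not (log2 change 0.15). Other BBSome subunits that rose were Bbs9 (1.79-fold), Bbs1 (1.46-fold) and Bbs2 (1.32-fold), while Bbs5 fell 1.72-fold. Of the IFT-B train, which moves cargo outward, Ift70b rose 1.76-fold, Ift46 1.45-fold and Ift70a1 1.38-fold, and Ift20 and Ift57 fell 1.47-fold and 1.32-fold. Of the IFT-A train, which acts in return transport, Ift140 read 9.28, 8.84 and 9.08 on differentiated brain arrays, against 8.40, 8.35 and 8.75 on proliferative ones, and rose 1.48-fold (limma adjusted p = 0.0075). Ift43 of the same train fell 1.51-fold. Bbs4, Bbs12, Ift22, Ift25, Ift27, Ift52, Ift74, Ift80, Ift81, Ift88, Ift122 and Ift172 did not pass in brain, with log2 changes between -0.29 and 0.47.

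The count of rising transport genes depended on scaling. After centring each array on its median, which moved the median of all probe sets to -0.15, 3 transport genes rose (Bbs7, Bbs9 and Ift70b) and 5 fell. Bbs1, Bbs2, Ift140, Ift46 and Ift70a1 then missed the threshold (adjusted p = 0.0662 to 0.232), as Bbs2 did after quantile normalization (adjusted p = 0.0573). Without differentiated brain array 3, 5 rose. Bbs1 lost its call without differentiated brain array 3 or proliferative brain array 2 or 3 (adjusted p = 0.0513 to 0.0901). Bbs2 lost it without differentiated brain array 2 or 3 or proliferative brain array 1 or 2 (adjusted p = 0.0659 to 0.109), and Ift70a1 without differentiated brain array 1 or 3 or proliferative brain array 3 (adjusted p = 0.0548 to 0.0738). Ift57 lost it without differentiated brain array 2 or proliferative brain array 3 (adjusted p = 0.0637 and 0.0668).

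In spinal cord, 8 of the 26 motile genes rose on differentiation and 2 fell, where 18.3% of all tested probe sets rose and 22% fell. The median log2 change was 0.39, or 0.14 with dim groups at the floor, against -0.05 over all tested probe sets. Of the 15 genes dim in no group, 5 rose and 2 fell, with a median of 0.37. The 8 were Tekt2, Tekt1, Rsph9, Dynlrb2, Cfap77, Cfap300 (2.57-fold, limma adjusted p = 2.12e-05), Cfap45 (at least 1.19-fold, limma adjusted p = 0.0214) and Cfap298 (1.32-fold, limma adjusted p = 0.0087). Cfap45 lost its call without differentiated spinal cord array 1 or 3 (adjusted p = 0.0560 and 0.0655). The filter passing of Tekt2 rested on the differentiated spinal cord arrays, so no test is drawn from its rise. Cfap20 fell 2.42-fold (limma adjusted p = 2.13e-07), as Dynlrb1 did by a smaller factor. Dnai1, Dnali1, Dnai7, Dnah1, Rsph1, Cfap36, Cfap69, Cfap97, Cfap107, Cfap410 and Cfap418 did not pass.

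Of the 24 transport genes, 4 rose and 5 fell in spinal cord, shares close to the 18.3% and 22% of all tested probe sets, with a median log2 change of 0.02. Bbs7 read 8.26, 8.33 and 8.91 on differentiated spinal cord arrays, against 7.19, 6.84 and 6.94 on proliferative ones, without overlap. It rose 2.84-fold (limma adjusted p = 0.000185), and its other probe set rose as well (2.12-fold). Ift122, an IFT-A subunit, read 8.05, 8.34 and 8.03 on differentiated spinal cord arrays, against 7.12, 7.54 and 7.17 on proliferative ones. It rose 1.82-fold (limma adjusted p = 0.000961), while Ift74 and Ift46 of IFT-B rose 1.52-fold and 1.45-fold, and the other Ift46 probe set did not pass. Bbs2 read 8.12, 7.88 and 8.32 on differentiated spinal cord arrays, against 8.92, 8.91 and 9.07 on proliferative ones, and fell 1.82-fold (limma adjusted p = 0.000231). Bbs1 read 8.17, 8.13 and 8.58 on differentiated spinal cord arrays, against 8.63, 9.24 and 8.88 on proliferative ones, and fell 1.54-fold (limma adjusted p = 0.0141). Ift43, Ift172 and Ift25 fell 1.46-fold, 1.41-fold and 1.37-fold.

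Leaving out differentiated spinal cord array 2 reduced the 5 falls to 2, and leaving out proliferative spinal cord array 2 reduced them to 3. Bbs1 lost its call without either of these or differentiated array 1 (adjusted p = 0.0547 to 0.0662). Ift172 lost it without any of 5 of the 6 spinal cord arrays, all but differentiated array 1 (adjusted p = 0.0531 to 0.147), and Ift25 without differentiated array 2 (adjusted p = 0.0629). Ift172 also lost it after median centring and quantile normalization (adjusted p = 0.126 and 0.0648), and Ift25 with the mean of its probe sets (adjusted p = 0.0707). That mean includes a probe set dim in all groups, and the other tested Ift25 probe set fell as well (limma adjusted p = 0.0045). Bbs4 and Ift81 passed, as Cfap126 did, once a proliferative array was left out: array 1 for Bbs4 and Ift81 (adjusted p = 0.0303 and 0.0368) and array 2 for Cfap126 (adjusted p = 0.0065).

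**Figure D4:**
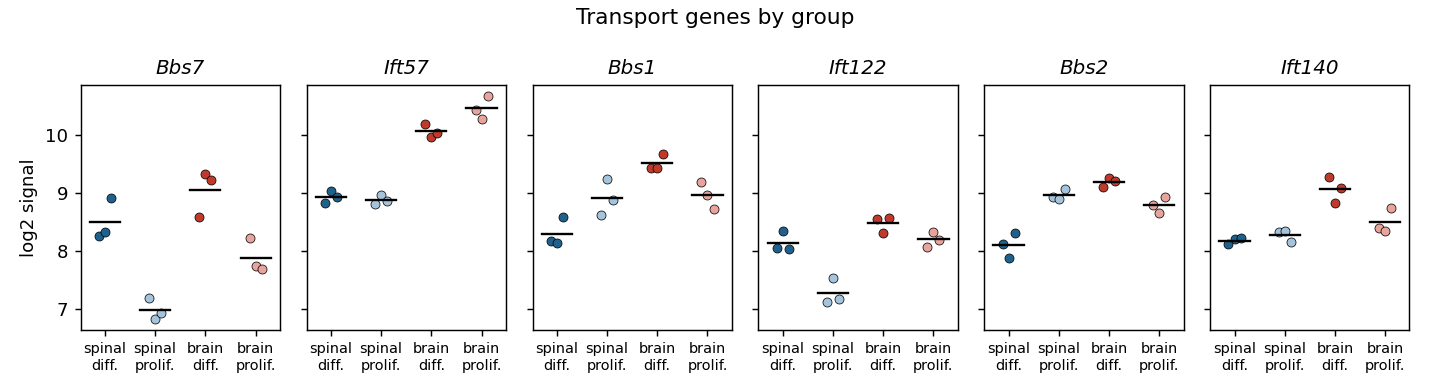
Log2 signal (y axis) of the 6 transport genes with the widest gap between group means in the 4 groups (x axis), points being arrays and bars means of 3 arrays. Bbs7 is higher in the differentiated state of both tissues, Bbs1 and Bbs2 are lowest on differentiated spinal cord arrays, and Ift57 is lower on all spinal cord arrays than on all brain arrays.

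The comparisons between tissues use the same 12 arrays as those above and are not independent of them. Proliferative spinal cord cultures had 3 of 26 motile genes higher than proliferative brain cultures and 7 lower, where 19.4% of all tested probe sets were higher and 18.5% lower. The median log2 difference was -0.56, or -0.19 with dim groups at the floor, against -0.02 over all tested probe sets, and among the 15 genes dim in no group 3 were higher and 5 lower. Higher in spinal cord were Cfap20dc (3.33-fold), Cfap20 (1.71-fold) and Cfap97 (1.59-fold). Lower were Cfap144 (at least 1.67-fold), Cfap298 (2.24-fold), Cfap300 (2.14-fold), Tekt1 (1.84-fold), Cfap418 (1.67-fold), Rsph9 (1.51-fold) and Rsph1, for which no fold is given. The Rsph1 call was lost when any array other than proliferative spinal cord arrays 1 and 2 was left out (adjusted p = 0.0535 to 0.166), and that of Rsph9 without proliferative brain array 1 or proliferative spinal cord array 1 (adjusted p = 0.0544 and 0.0895). Rsph1 also missed it without the filter or the trend (adjusted p = 0.0664 and 0.0597), and Cfap97 after median centring (adjusted p = 0.0631). Foxj1 averaged 7.92 ± 0.67 in proliferative spinal cord cultures and 8.17 ± 0.71 in proliferative brain cultures (SD, n = 3 each), a difference that did not pass (limma adjusted p = 0.611).

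Transport genes were lower in proliferative spinal cord cultures in 6 of 24 cases by the limma fit and higher in 0, also at an unadjusted p under 0.05 (17 of 24 log2 differences were below 0, and 12 were called lower after median centring, which moved the median of all probe sets to -0.22). Over all tested probe sets 18.5% were called lower and 19.4% higher. Ift57, an IFT-B subunit, read 8.81, 8.97 and 8.86 on proliferative spinal cord arrays, against 10.42, 10.28 and 10.67 on proliferative brain arrays. It was 2.98-fold lower in spinal cord (limma adjusted p = 3.62e-07), and in differentiated cultures its values of 8.83, 9.03 and 8.93 in spinal cord, against 10.19, 9.96 and 10.03 in brain, were again apart. The others were Ift122 (1.90-fold), Bbs7 (1.86-fold), Ift74 (1.65-fold), Bbs5 (1.62-fold) and Ift88 (1.57-fold). Bbs5 lost its call without proliferative brain array 1 (adjusted p = 0.0604), and Ift88 without proliferative brain array 2 or proliferative spinal cord array 2 or 3 (adjusted p = 0.0506 to 0.0748). Calls gained by leaving out an array were Cfap126 and Cfap77, without proliferative spinal cord array 2 and array 1 (adjusted p = 0.0054 and 0.000757), and Dnali1, Dynlrb2 and Ift43, without proliferative brain array 2 (adjusted p = 0.0181 to 0.0491). Ift27 and Ift52 were gained without proliferative spinal cord array 1 and Bbs4 without array 3 (adjusted p = 0.0165 to 0.0295).

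Differentiated spinal cord cultures had 14 of 26 motile genes lower than differentiated brain cultures and 2 higher, where 22.9% of all tested probe sets were lower and 18.5% higher. The median log2 difference was -0.86, or -0.61 with dim groups at the floor, against -0.06 over all tested probe sets. Among the 15 genes dim in no group, 8 were lower and 1 higher, with a median of -0.62. Dynlrb2 was 5.72-fold lower (limma adjusted p = 2.97e-05), Cfap144 at least 4.21-fold (limma adjusted p = 4.87e-05), Dnali1 3.58-fold (limma adjusted p = 0.000493) and Foxj1 2.70-fold (limma adjusted p = 0.0044). Rsph1 was at least 2.29-fold lower, Rsph9 2.15-fold, Cfap418 2.09-fold and Dnai1 at least 1.98-fold. The remaining lower genes were Cfap410 (1.57-fold), Cfap36 (1.55-fold), Tekt1 (1.54-fold), Cfap107 (at least 1.51-fold), Dynlrb1 (1.35-fold) and Ak7 (at least 1.19-fold). Higher in spinal cord were Tekt2 (4.03-fold) and Cfap20dc (1.87-fold, limma adjusted p = 0.0322). These counts include Dnai1, Ak7, Rsph1 and Tekt2, whose passing of the filter rested on the group where they were high. A difference was thus built into their passing.

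Calls at the edge of that comparison depended on single arrays. Cfap20dc was lost without differentiated brain array 2 or 3 or any differentiated spinal cord array (adjusted p = 0.0560 to 0.101), Tekt1 without differentiated brain array 1 or 3 or differentiated spinal cord array 1 or 2 (adjusted p = 0.0508 to 0.119), and Cfap410 without differentiated brain array 1 or 2 or differentiated spinal cord array 2 or 3 (adjusted p = 0.0585 to 0.148), without the filter (0.0543) or after median centring (0.0561). Ak7 was lost without differentiated spinal cord array 1 (adjusted p = 0.0560), and Cfap107 without that array or differentiated brain array 3 (adjusted p = 0.0510 and 0.0611). Cfap126 and Dnah1 passed without proliferative spinal cord array 1 and array 2 (adjusted p = 0.0125 and 0.0477), and Dnai7 without differentiated spinal cord array 3 (adjusted p = 0.0125). Cfap126 and Dnah1 reached the filter only with the differentiated brain arrays, where they were high, so no test is drawn from their gains.

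Of the 24 transport genes, 9 were lower in differentiated spinal cord cultures than in differentiated brain cultures and 1 was higher, with a median log2 difference of -0.39. Over all tested probe sets 22.9% were lower and 18.5% higher, with a median of -0.06. Lower were the BBSome subunits Bbs1 (2.32-fold, limma adjusted p = 0.000102), Bbs2 (2.12-fold, limma adjusted p = 2.60e-05) and Bbs4 (1.64-fold). Lower too were the IFT members Ift57 (2.19-fold), Ift140 (1.85-fold), Ift81 (1.74-fold), Ift70b (1.58-fold), Ift172 (1.54-fold) and Ift25 (1.46-fold). The other tested Ift81 probe sets had log2 differences of -0.57 and -0.47 and did not pass (limma adjusted p = 0.0972 and 0.114). Ift20 was 1.20-fold higher (limma adjusted p = 0.0413), a call lost without differentiated brain array 1 or 3, proliferative brain array 1 or any differentiated spinal cord array (adjusted p = 0.0523 to 0.151) and under 3 other settings. Ift25 lost its call with the mean of its probe sets (adjusted p = 0.547), which includes a probe set dim in all groups. Its other tested probe set was lower as well (log2 difference -0.80, limma adjusted p = 0.000893). Bbs4 lost its call without any of the arrays compared except differentiated spinal cord array 1 (adjusted p = 0.0712 to 0.115), after median centring (0.0591) and without the trend (0.0627), and Ift70b without array 2 or 3 of either tissue (adjusted p = 0.0743 to 0.103). Bbs7 passed without differentiated brain array 1 or differentiated spinal cord array 3 (adjusted p = 0.0189 and 0.0263), Bbs9 and Ift22 without differentiated spinal cord array 1 and array 2 (adjusted p = 0.0395 and 0.0174), and Ift70a1 without proliferative brain array 3 (adjusted p = 0.0431).

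The change on differentiation itself differed between the tissues for 14 of the 50 tested genes by the interaction term of the same model, 8 motile and 6 transport. Among the motile genes 3 had a larger log2 change in spinal cord and 5 a smaller one, where 18.8% and 21.7% of all tested probe sets did. Of the 15 motile genes dim in no group, 2 had a larger and 4 a smaller change. Dynlrb2 changed by 0.88 in spinal cord and by 2.87 in brain, a difference of -1.99 (SE 0.46, limma adjusted p = 0.0035). Cfap298 had opposite signs, with 0.41 in spinal cord and -0.88 in brain (difference 1.29, SE 0.15, limma adjusted p = 1.88e-05). It read 9.75, 9.57 and 9.57 on differentiated spinal cord arrays, against 9.28, 9.26 and 9.14 on proliferative ones, and 9.60, 9.56 and 9.35 on differentiated brain arrays, against 10.44, 10.28 and 10.44 on proliferative ones. The differentiated arrays of both tissues overlapped, and the proliferative ones did not.

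Cfap300 changed by 1.36 in spinal cord and 0.55 in brain (limma adjusted p = 0.0127), Cfap20 by -1.28 and -0.61 (limma adjusted p = 0.0011), Dynlrb1 by -0.64 and -0.06 (limma adjusted p = 0.000774) and Cfap36 by -0.17 and 0.32 (limma adjusted p = 0.041). Tekt2 and Dnai1 are also counted, but their passing of the filter rested on the group where they were high. Each was dim in 2 or 3 groups, so no test or size is drawn from their differences. After median centring the calls of Cfap20, Dynlrb1 and Cfap36 were lost (adjusted p = 0.0663, 0.106 and 0.266). The Cfap36 call was also lost under 4 other settings and when any array other than proliferative brain arrays 1 and 2 and proliferative spinal cord array 1 was left out (adjusted p = 0.0518 to 0.101). The difference of -1.18 for Foxj1 did not pass (limma adjusted p = 0.0698), and passed without proliferative brain array 1 or proliferative spinal cord array 1 (adjusted p = 0.0147 and 0.0094).

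Of the transport genes, Bbs1 and Bbs2 fell in spinal cord and rose in brain, with log2 changes of -0.62 and 0.55 for Bbs1 and -0.86 and 0.40 for Bbs2. Bbs1 read 9.44, 9.43 and 9.67 on differentiated brain arrays, against 9.19, 8.96 and 8.73 on proliferative ones, and Bbs2 read 9.10, 9.27 and 9.21, against 8.80, 8.65 and 8.93. The differences were -1.17 (SE 0.25, limma adjusted p = 0.0024) and -1.26 (SE 0.20, limma adjusted p = 0.000187). The other Bbs1 probe set showed the same signs, -0.31 and 0.43, without passing. Ift140 changed by -0.09 in spinal cord and 0.57 in brain, Ift20 by -0.05 and -0.55, Ift74 by 0.60 and 0.09, and Bbs5 by -0.01 and -0.78, all past the threshold for the difference (limma adjusted p = 0.0248, 0.0103, 0.0238 and 0.0434). Of these, Ift140 lost its call without differentiated brain array 1 or 3, proliferative brain array 1 or 2, differentiated spinal cord array 1 or proliferative spinal cord array 2 (adjusted p = 0.0507 to 0.0672), after median centring (0.184) and after quantile normalization (0.0538). Bbs5 lost it without the filter (0.0588) or the trend (0.0579), and without any array except differentiated brain array 2, proliferative brain array 2, differentiated spinal cord array 2 and proliferative spinal cord array 3 (adjusted p = 0.0594 to 0.108), and Ift74 without array 1 of either brain group or array 3 of either spinal cord group (adjusted p = 0.0541 to 0.0641). Counts here moved with single arrays: 1 transport gene had the larger change in spinal cord without proliferative brain array 1 or differentiated spinal cord array 3, 5 the smaller one without proliferative spinal cord array 1, and 3 to 8 motile genes the smaller one without differentiated brain array 1 or 3 or proliferative brain array 1.

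**Figure D5:**
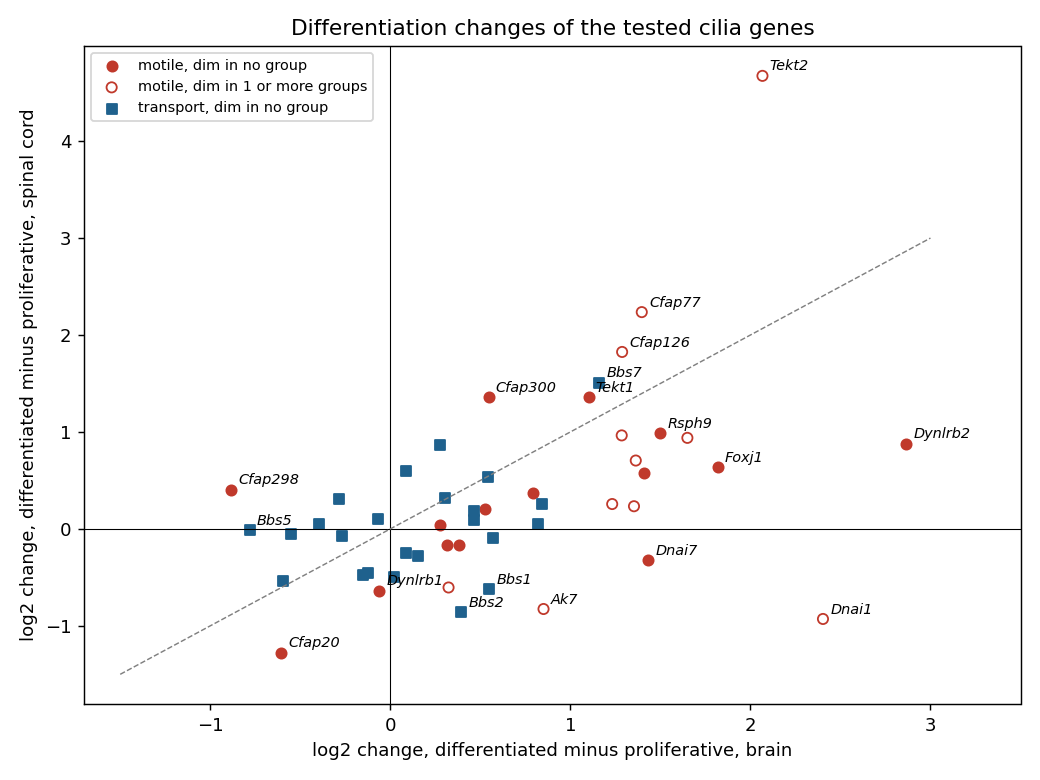
Log2 change, differentiated minus proliferative cultures, in brain (x axis) and in spinal cord (y axis) for the 50 tested genes, with circles for motile and squares for transport genes, open where a gene was dim in 1 or more groups; the dashed line marks equal changes. Dynlrb2 and Foxj1 lie below the line, Tekt2 and Cfap300 above it, and Bbs1 and Bbs2 lie right of 0 and under 0.

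Other cilia genes were taken from lists by function, and their counts stand against the shares of all tested probe sets given above: 23.7% up and 23.1% down in brain, 18.3% and 22% in spinal cord, 19.4% higher and 18.5% lower in spinal cord between proliferative cultures, and 18.5% and 22.9% between differentiated ones. Of 19 tested axoneme and assembly genes outside the families above, 8 rose and 1 fell in differentiated brain cultures (median log2 change 0.50), and 2 rose and 0 fell in spinal cord by the limma fit (median 0.22). Drc1 and Dnaaf3, counted among the 8, passed the filter through the differentiated brain arrays alone, so a difference was built into their passing. Of the 12 dim in no group, 4 rose and 1 fell in brain (median 0.29), and 2 rose and 0 fell in spinal cord (median -0.02). In brain, Drc3 of the nexin-dynein regulatory complex rose 3.73-fold and the axonemal protein Lrrc23 3.09-fold. The anchoring protein Akap14, also among the 8, was 3.86-fold higher in differentiated brain cultures, against a proliferative mean of 5.59 under the floor. Akap14 was dim in both spinal cord groups and would have missed the filter without the differentiated brain arrays, so no test is drawn from it. In spinal cord, Ccdc65 rose 2.22-fold and Gas8 1.97-fold, both of the same regulatory complex. Between differentiated cultures, 13 of the 19 were lower in spinal cord and 0 higher, and between proliferative ones 9 were lower and 0 higher. Among the 12 dim in no group these counts were 7 and 6 lower, with 0 higher in both. Of the 22 transport, BBSome and motor genes under other symbols, 4 rose and 2 fell in brain and 9 rose and 3 fell in spinal cord. Dynll2, a dynein light chain, rose 3.34-fold in brain, and Dync2i1 of the dynein that returns IFT trains rose 2.03-fold in spinal cord. Of the same 22, 11 were lower and 0 higher in proliferative spinal cord cultures than in proliferative brain cultures, and 10 lower and 1 higher between differentiated ones.

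Of the regulators of motile ciliogenesis, Gmnc, Ccno and Myb lay low, while E2F genes and the RFX genes other than Rfx2 were well above the floor. Rfx2 averaged 6.81 in differentiated and 6.57 in proliferative spinal cord cultures, close to the floor. Gmnc, which starts the multiciliation programme, was dim in all groups, and Ccno, a cyclin-like protein of the same programme, averaged 0.99 ± 0.96 in differentiated and 1.24 ± 0.87 in proliferative spinal cord cultures. In brain Ccno averaged 7.03 ± 0.15 in differentiated and 0.78 ± 0.89 in proliferative cultures (SD, n = 3 each), so differentiated brain cultures were the only ones above the floor. Ccno passed the filter through those arrays alone, so no test is drawn from it. Myb, which acts early in multiciliation, rose at least 1.59-fold in brain, and Gmnn, which inhibits the programme and also guards DNA replication, fell 2.45-fold. Of the list's 15 tested genes, which include Ccno and the centriole genes Cep63, Plk4 and Stil beside transcription factors, 3 rose and 3 fell in brain and 1 rose and 4 fell in spinal cord. Among the 13 dim in no group, 1 rose and 3 fell in brain and 1 rose and 4 fell in spinal cord. Between differentiated cultures 5 were lower in spinal cord and 0 higher, Ccno included, and of the 13 dim in no group 4 were lower and 0 higher. Among these were Rfx4 (6.85-fold), Rfx3 (3.41-fold) and Rfx2 (2.52-fold). Rfx3, a factor of both cilia kinds, averaged 7.64 ± 0.14 in differentiated and 9.24 ± 0.14 in proliferative spinal cord cultures and 9.40 ± 0.52 in differentiated and 9.23 ± 0.10 in proliferative brain cultures.

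Genes of the primary cilium moved in both directions. Of 33 tested transition zone and primary cilium genes, 5 rose and 10 fell in brain and 6 rose and 8 fell in spinal cord, and the spinal cord shares lay close to those of all tested probe sets. Cep290, a transition zone protein, fell 2.46-fold in brain, and Ahi1 fell 2.33-fold in spinal cord. Of 13 tested genes of the hedgehog pathway, 5 rose and 1 fell in spinal cord (median log2 change 0.31), and 2 rose and 6 fell in brain (median -0.37). Gli2, the transcription factor that carries the signal, rose 4.90-fold in spinal cord and fell 1.79-fold in brain, a difference of 3.13 log2 units (limma adjusted p = 7.56e-06). Smo, the signal transducer that enters the cilium, rose 3.12-fold in spinal cord. The pathway's output gene Gli1 and the ligand genes Shh and Ihh were dim in all 4 groups. The remaining ligand gene, Dhh, averaged 5.53 in differentiated and 6.78 in proliferative spinal cord cultures and 7.79 in differentiated and 9.13 in proliferative brain cultures, and fell in brain (limma adjusted p = 0.0445).

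Markers of other cells also differed between the groups. The summed linear signal of 8 ependymal markers on the array was 37950 to 40340 in differentiated and 29220 to 36950 in proliferative spinal cord cultures, and 62600 to 66650 in differentiated and 29600 to 37950 in proliferative brain cultures. Vim, Aqp4 and S100b, which astrocytes and, for Vim, stem cells express too, made up 57010 to 61140 of the sum in differentiated and 23630 to 28500 in proliferative brain cultures. The other 5 markers summed to 3580 to 3655 in differentiated and 2097 to 2446 in proliferative spinal cord cultures, and to 5438 to 5586 in differentiated and 5971 to 9453 in proliferative brain cultures. Without those 3 genes the brain sum was thus lower in the differentiated state. Such a sum follows its brightest genes and not the number of genes that rose or fell. Prom1, among the 5, is also on the stem cell list. Of the 8, 5 rose and 1 fell in brain, and 4 rose and 1 fell in spinal cord. Foxj1 among them is itself a cilia gene of the motile set, and Tmem212, a more specific marker, did not pass in either tissue. The sum of 6 astrocyte markers was 42410 to 52330 in differentiated and 15480 to 28220 in proliferative spinal cord cultures, and 80620 to 85870 in differentiated and 25830 to 31910 in proliferative brain cultures. Of the choroid plexus markers Kl was dim in all groups, Ttr averaged 8.32 ± 0.17 in differentiated and 8.56 ± 2.33 in proliferative brain cultures, and the list's sum stayed at or under 1490 everywhere. Fibroblast markers summed to 63310 to 71800 in differentiated and 15580 to 28990 in proliferative spinal cord cultures, against 530.7 to 639.2 in differentiated and 307.3 to 437.7 in proliferative brain cultures. The sum of 4 oligodendrocyte markers was 24690 to 28480 in differentiated and 23970 to 26110 in proliferative spinal cord cultures. In brain it was 25760 to 32590 in differentiated and 773.8 to 2693 in proliferative cultures. Cycling markers summed to 6312 to 6755 in differentiated and 8193 to 14970 in proliferative spinal cord cultures. Their sum in brain was 6269 to 6772 in differentiated and 4149 to 6488 in proliferative cultures. The part of these cells in the results was not tested.

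The lists for other cells gave the following counts. Like the ependymal counts above, they stand against 23.7% up and 23.1% down over all tested probe sets in brain. In spinal cord these shares were 18.3% and 22%. The lists are short, and several counts lie near those shares. In brain, 3 of 6 stem cell, 1 of 5 cycling, 5 of 6 astrocyte, 3 of 4 oligodendrocyte precursor, 4 of 4 oligodendrocyte, 2 of 3 microglia and 2 of 6 fibroblast genes rose, and 4 of 6 neuronal genes fell. Also in brain, 1 stem cell and 2 fibroblast genes fell, and of 5 tested choroid plexus genes 1 rose and 1 fell. In spinal cord 4 astrocyte, 5 fibroblast, 1 oligodendrocyte precursor and 1 choroid plexus gene rose. There 4 stem cell, 3 cycling, 2 astrocyte, 3 oligodendrocyte precursor, 1 oligodendrocyte, 3 neuronal, 1 microglia and 1 endothelial gene fell. Pecam1 of the endothelium and the spermatogenic marker Sycp3, a gene of a tissue that also makes axonemes, were dim in all groups.

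Arrays correlated at r = 0.940 to 0.975 within groups and at 0.735 to 0.880 between groups, across probe sets. Proliferative spinal cord array 1 had a cycling marker sum of 14970, against 8193 and 8621 on arrays 2 and 3. Differentiated brain cultures had 5S rRNA control values of 7.85 to 8.19, against 9.50 to 11.02 in proliferative ones. The difference between 3' and 5' Gapdh probe sets, which follows RNA integrity, was -0.13 to 0.07 in differentiated brain cultures, against 0.08 to 0.13 in proliferative ones. The same difference for actin was 0.99 to 1.01 on differentiated spinal cord arrays, against 0.69 to 0.99 on proliferative ones. Their part in the results was not tested.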

How the data were processed

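Total RNA from 12 samples was labelled with a 3' IVT kit and hybridised to Rat230_2 arrays, per the labels' protocols. Each deposited value is a probe set's log2 signal, and the submitters' processing notes name MAS5 and affy without versions. On the linear scale each array's trimmed mean was 500, so arrays were used as deposited. The platform annotation named the genes, and 57 control probe sets were left out. A mean per group was fitted with limma 3.58.1 (lmFit, eBayes with a trend, leaving 8 residual degrees of freedom) and R 4.3.3, and figures were drawn in Python 3.11.15. The fit was tested on simulated data. Replicate numbers did not pair arrays: deviations of same-numbered arrays correlated at -0.119 to 0.048 in 18 pairs. Per-array values are given for Foxj1, Ak7 and the 12 motile and 6 transport genes with the widest range of group means, and up to 4 genes per list with the largest called change. Members and lists were chosen with earlier results of these data known. The floor, the counts without dim genes and the split of the ependymal sum were chosen after seeing the data. The number of arrays limits the precision. Alternatives were no filter, median centring, quantile normalization, an offset of 64, no trend, a replicate block, the mean of probe sets per gene, and leaving out each array.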

Additional observations from a re-analysis of the deposited data

Results flagged for a closer look

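The differentiation change differed between spinal cord and brain, by the interaction term of the limma fit, for 14 of the 50 tested cilia genes, where 18.8% of all tested probe sets had a larger and 21.7% a smaller change in spinal cord by the same term. Values are the log2 change in spinal cord minus that in brain. It was negative for Dynlrb2 (-1.99), Bbs2 (-1.26), Bbs1 (-1.17), Cfap20 (-0.67), Ift140 (-0.66), Dynlrb1 (-0.57) and Cfap36 (-0.48). It was positive for Cfap298 (1.29), Cfap300 (0.81), Bbs5 (0.77), Ift74 (0.52) and Ift20 (0.50). Dnai1 (-3.33) and Tekt2 (2.61) rest on groups that were dim, so their sizes have no reliable meaning and no test is drawn from them.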

How the results depend on the processing

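Counts of called cilia genes stayed within 1.5 times in 370 recounts and moved further in 30. For single tested genes, 4448 values under an alternative kept direction and side of the threshold, 156 missed it, 96 newly passed it and 0 reversed. Another 50 could not be had, because Ak7, Dnah1 and Dnai1 fail the filter without a differentiated brain array and Dnali1 fails it as a mean of probe sets. Median centring gave 3 transport genes up in brain (8 as reported), 12 transport genes lower in proliferative spinal cord cultures (6), 0 transport genes higher in differentiated spinal cord cultures (1), 2 motile genes with a smaller response in spinal cord (5) and 6 transport genes with a larger one (3). It moved the median of all probe sets to -0.15, -0.22, -0.04 and 0.19 in these contrasts, in that order. Quantile normalization gave 6 transport genes with a larger response in spinal cord and the mean of probe sets per gene gave 5. An offset of 64 on the linear scale gave 11 motile genes with a smaller response. Without the filter, and without the mean-variance trend, 0 transport genes were higher in differentiated spinal cord cultures. With the replicate number as a block, 14 motile and 8 transport genes rose in brain, as without it, and of the calls discussed it removed Rsph1 between proliferative cultures (adjusted p = 0.0559), Cfap36 (0.0518) and Bbs5 (0.0537) for the difference of responses.

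Leaving out single arrays gave 5 to 8 transport genes up in brain (fewest without differentiated brain array 3), 2 to 6 transport genes down in spinal cord (fewest without differentiated spinal cord array 2), 1 to 2 motile genes and 0 to 1 transport genes higher in differentiated spinal cord cultures. For the difference of responses it gave 3 to 8 motile genes and 2 to 5 transport genes with a smaller change in spinal cord and 1 to 4 transport genes with a larger one. Motile genes up in brain numbered 10 to 18. Where arrays of a group are reduced in this way, the fit still pools the spread of all groups. Signals under the 40th percentile limit what can be said of the 15 motile genes that were not tested.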
